A study of Mus musculus with 2 samples.

Results

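The genes described here encode the proteins of the cytosolic ribosome. They were taken from the deposited gene list by name: every symbol made of Rpl or Rps followed by a digit, plus Rpsa, leaving out 5 pseudogene symbols that contain -ps and 10 ribosomal S6 kinase symbols that start with Rps6k. The rule found 83 genes of 32285 listed, 49 of the large subunit by name (Rpl) and 34 of the small subunit (Rps). It took in 1 gene whose product is not a ribosomal protein, Rps19bp1, which encodes a binding partner of RPS19. It left out 6 genes of ribosomal proteins with other names, among them Rplp0, Rplp1, Rplp2, Fau and Rack1, which are reported separately. Expression was detected for every member except Rpl10l, which had 0 UMIs in both libraries.

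Each cytosolic ribosome joins a large and a small subunit, in which ribosomal RNA is held by many different proteins that are used in equal numbers, so their messenger RNAs are among the most abundant of growing cells. The messenger RNAs share a pyrimidine-rich start, through which mTOR and LARP1 control their translation together. In marrow, ribosome production is high in dividing progenitors and is shut down as neutrophils and red cells mature, and partial loss of single ribosomal protein genes causes the red cell failure of Diamond-Blackfan anaemia.

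The cells were femoral marrow and cells attached to the implant, collected jointly from mice with an osteoporotic fracture that carried a nail in the marrow cavity. One group received magnesium (Mg) nails and the other Mg-TAGelMA nails; GelMA is gelatin methacryloyl, a light-curable gelatin hydrogel, while what TA stands for is not stated. Each group was 1 single-cell library made with the Chromium 3' v3 kit, which counts unique molecular identifiers (UMIs), about 1 tag per captured polyadenylated RNA molecule, so counts were not divided by gene length. Both groups shared the fracture model, and no group without a nail was analysed here. The labels give neither the strain, age or sex of the mice, nor how the osteoporosis was induced, nor how many mice were pooled. With 1 library per group no test between the nails was possible: all ratios describe these 2 libraries, and their 95% intervals cover counting error only.

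After filtering, 8122 cells of the Mg library held 55173502 UMIs (median 3803.5 per cell) and 7226 cells of the Mg-TAGelMA library held 74982979 (median 6744). The counting software differed, Cell Ranger 5.0.0 for Mg and 7.0.1 for Mg-TAGelMA, and cannot be told apart from the nail. The ribosomal RNA-like models Gm42418 and AY036118 took 7.07% of UMIs in Mg and 0.120% in Mg-TAGelMA, and genes of little intron, with 8 kb or less by annotation, took 62.2% and 54.9%. The libraries shared 21 cell barcodes. Cells were assigned to 17 classes from 6 marker genes each, which placed 5435 cells (66.9%) and 4600 cells (63.7%), and 1196 and 423 cells lay within 0.1 of the score threshold. In every compared class all 6 markers were detected. Markers of the immature and mature neutrophil classes were also found in other classes, at 12.8 and 43.9 UMIs per 10000 in T-like cells of the Mg and Mg-TAGelMA libraries. In the Mg-TAGelMA library immature neutrophil markers outnumbered the class's own markers in the HSPC-like (haematopoietic stem and progenitor), B-like and T-like cells (32.8 against 20.1, 34.995 against 27.7 and 34.7 against 30.3 per 10000). The source of these transcripts and their part in the values below were not tested.

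The family took 16.2% of all UMIs in Mg and 12.8% in Mg-TAGelMA. Among the 9 classes with at least 50 cells in both libraries, it took the smallest shares in neutrophils in both libraries, and the largest in T-like cells of Mg and early granulocyte-like cells of Mg-TAGelMA. T-like cells gave 27.2% and 22.9% (Mg, then Mg-TAGelMA), and early erythroid-like cells, which carry Klf1 and Gata1, gave 25.5% and 24.3%. HSPC-like cells, the stem and progenitor class with Kit and Cd34, gave 24.1% and 20.2%.

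The other lymphoid and myeloid classes differed in their place between the libraries. B progenitor-like cells, marked by the surrogate light chain and recombinase genes, gave 22.4% and 14.2%, and B-like cells gave 18.4% and 16.4%. Early granulocyte-like cells, marked by Elane and Mpo, gave 18.8% and 24.5%, and monocyte-like cells gave 15.7% and 15.1%. In the order of classes by summed share, B progenitor-like cells were 4th in Mg and 7th in Mg-TAGelMA. Early granulocyte-like cells were 5th and 1st.

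Neutrophils stood apart from all other compared classes. Immature neutrophil-like cells, with Ltf and Camp, gave 5.26% and 6.24%, and mature neutrophil-like cells, with Retnlg and Mmp8, gave 3.17% and 3.12%. The highest class exceeded the lowest 8.60-fold in Mg (T-like over mature neutrophil-like) and 7.85-fold in Mg-TAGelMA (early granulocyte-like over mature neutrophil-like). In the Mg library the interquartile ranges of single cells overlapped between most neighbours in the order. Those of monocyte-like (11.7% to 17.4%) and immature neutrophil-like cells (3.08% to 5.99%) were apart. The ranges were 21.9% to 31.0% in T-like and 2.64% to 3.93% in mature neutrophil-like cells. An alternative added after the data were seen kept cells with at least 5000 UMIs. The mature neutrophil-like and early granulocyte-like classes then had too few cells in the Mg library to be compared. The highest class then exceeded the lowest 5.66-fold in Mg (T-like over immature neutrophil-like) and 3.98-fold in Mg-TAGelMA (early erythroid-like over immature neutrophil-like), which are other pairs of classes.

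**Figure D1:**
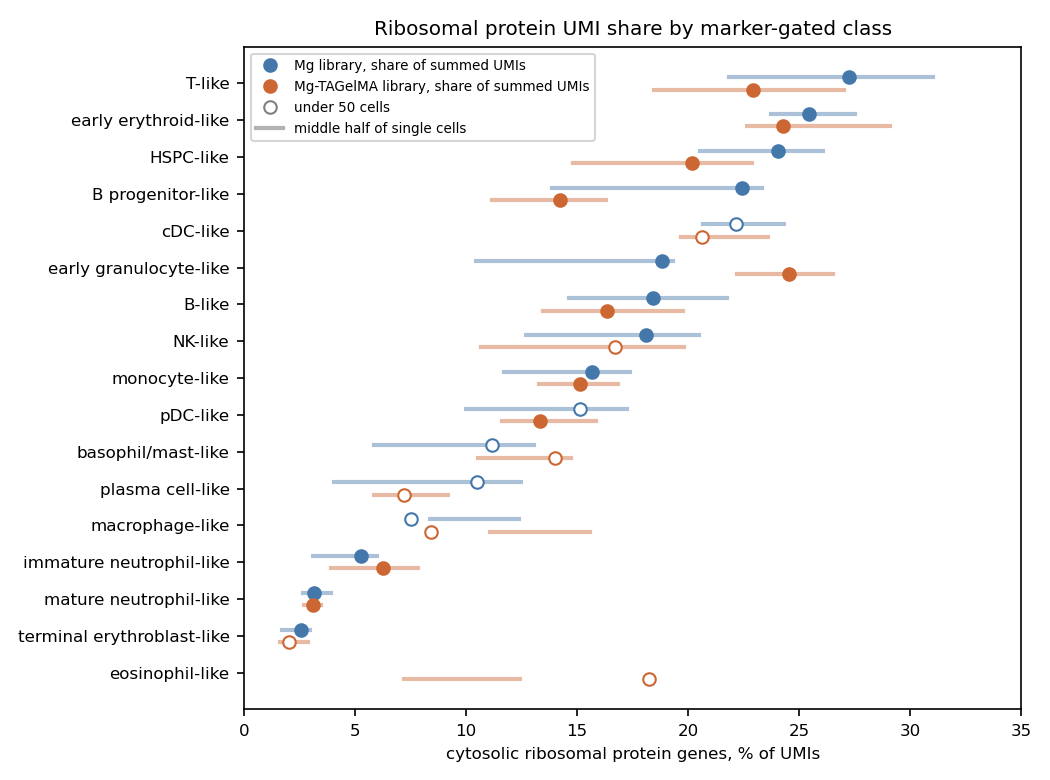
Share of all UMIs that came from the 83 ribosomal protein genes (x axis, percent) in each marker-gated class (y axis), with the Mg and Mg-TAGelMA libraries in separate colours; bars span the interquartile range of single cells, and open points are classes with under 50 cells. Among the 9 compared classes, lymphoid, progenitor, monocyte and early erythroid cells lie at 14.2% or above and both neutrophil classes at 6.24% or below.

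In absolute terms the classes were further apart. The median T-like cell held 1525 family UMIs in Mg and 1791.5 in Mg-TAGelMA. The median early erythroid-like cell held 7426 and 10324, and the median mature neutrophil-like cell held 49 and 149. Total UMIs per cell moved with these values, with medians of 5536.5 and 7822.5 in T-like, 30334 and 43634 in early erythroid-like and 1404 and 4844 in mature neutrophil-like cells. The large and small subunits kept pace with each other: Rpl UMIs were 1.06 and 1.05 times Rps UMIs over all cells.

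Classes below 50 cells in either library are given as values only. Terminal erythroblast-like cells had the lowest share of all, 2.54% in Mg (434 cells) and 2.03% in Mg-TAGelMA (37 cells). Cells like conventional dendritic cells had 22.2% and 20.6% (19 and 8 cells), NK-like cells 18.1% and 16.7% (69 and 28 cells), and cells like plasmacytoid dendritic cells 15.1% and 13.3% (31 and 92 cells). Plasma cell-like cells, which make antibody in bulk, had 10.49% and 7.22% (13 and 40 cells). Basophil/mast-like cells had 11.1% and 14.0% (12 and 17 cells) and macrophage-like cells 7.50% and 8.42% (24 and 27 cells). The 16 eosinophil-like cells were all in the Mg-TAGelMA library and gave 18.3%, with a median cell at 8.04%.

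Along the granulocyte series nearly the whole family was lower in neutrophils than in early granulocyte-like cells. The summed share of immature neutrophil-like cells was 3.58-fold lower than that of early granulocyte-like cells in Mg (95% interval 3.56 to 3.598) and 3.93-fold lower in Mg-TAGelMA (3.92 to 3.94). A gene was counted as past 2-fold where its whole ratio interval lay beyond 2 and it reached 50 CPM (counts per 1000000 UMIs) in the higher class. By that rule 76 of 78 measured members were lower in Mg, where 15.8% of all measured genes were, and 78 of 79 in Mg-TAGelMA, where 26.7% of all measured genes were. None was past 2-fold higher in either, where 6.29% and 12.1% of all genes were. The median member had a log2 ratio of -1.86 in Mg and -1.99 in Mg-TAGelMA, beside -0.29 and -0.37 for all measured genes.

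Mature neutrophil-like cells lay lower still. Their summed share was 5.94-fold below that of early granulocyte-like cells in Mg and 7.85-fold below in Mg-TAGelMA. Past 2-fold were 77 of 78 members in Mg (24.5% of all measured genes) and 78 of 79 in Mg-TAGelMA (41.2%). From immature to mature, the share was 1.66-fold lower in Mg, with 1 of 77 members past 2-fold (6.98% of all genes), and 1.998-fold lower in Mg-TAGelMA, with 47 of 77 (19.5%). The Mg mature class held 9730 family UMIs in 173 cells and the Mg-TAGelMA class 212812 in 1357 cells. The median member had a log2 ratio of -0.82 in this step in Mg and -1.20 in Mg-TAGelMA. The median over all measured genes was near 0, at 0.05 and 0.01. The Mg early granulocyte-like class was also thin, with 78 cells of a median 2453.5 UMIs, against 168 cells of 34818.5 in Mg-TAGelMA.

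The member furthest from this pattern was Rps9, which encodes a small subunit protein (uS4) that binds 18S ribosomal RNA. It was counted at 3169, 1670 and 1603 CPM in early granulocyte-, immature neutrophil- and mature neutrophil-like cells of the Mg library, and at 3430, 1783 and 1882 CPM in those of the Mg-TAGelMA library. Its level in mature neutrophil-like cells was 1.98-fold and 1.82-fold below early granulocyte-like cells, and it did not pass 2-fold in either. At the other end, Rps2 (uS5), another small subunit protein, was counted at 2934 CPM in early granulocyte-like and 449 CPM in immature neutrophil-like cells of Mg, and at 5194 and 649.6 CPM in those of Mg-TAGelMA. These were the lowest log2 ratios of any member in that step, -2.71 and -2.999. Rps27, a small subunit protein with a zinc finger, was 1328, 524.4 and 420.3 CPM along the series in Mg and 1804, 838.1 and 765.1 CPM in Mg-TAGelMA, nearer to Rps9 than to Rps2.

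**Figure D2:**
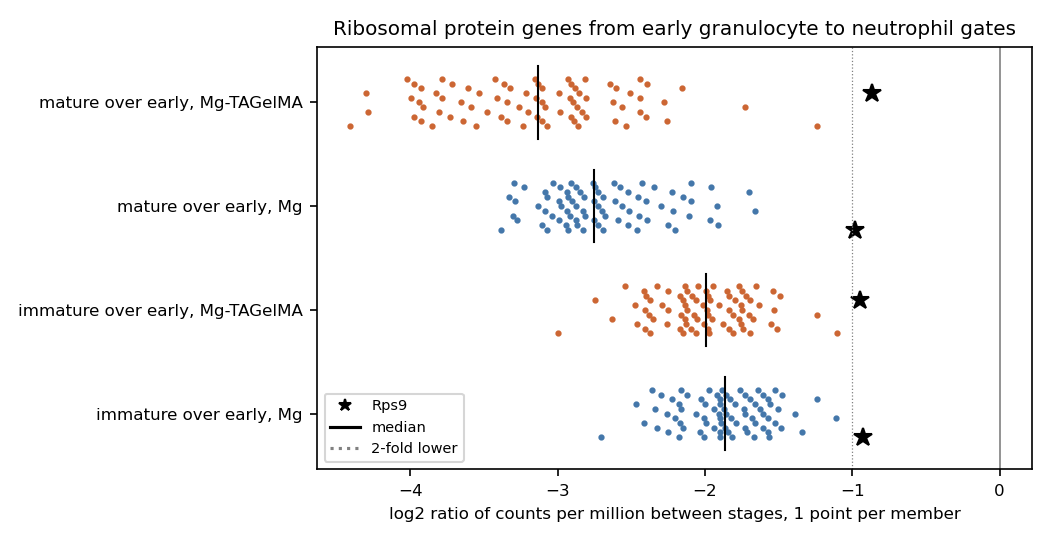
Log2 ratio (x axis) of each measured member in immature and in mature neutrophil-like cells over early granulocyte-like cells, with a row for each step and library (y axis). Each point is 1 member, the star is Rps9, the solid line is the median member and the dotted line marks 2-fold lower. Rps9 lies at -0.98 to -0.87 in all 4 rows, to the right of medians of -1.86 to -3.13.

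Monocyte-like cells, which arise from related progenitors, did not share the neutrophil pattern. Their summed share was 0.833 times that of early granulocyte-like cells in Mg and 0.617 times in Mg-TAGelMA. No member of 78 was more than 2-fold lower in Mg (7.93% of all measured genes were) and 8 of 79 were in Mg-TAGelMA (7.91%), a share close to that of all genes. Rps9 was higher in monocyte-like than in early granulocyte-like cells, at 4150 against 3169 CPM in Mg and 3598 against 3430 CPM in Mg-TAGelMA.

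In the erythroid series the family's share also differed strongly, by an amount that depended on haemoglobin. In the Mg library terminal erythroblast-like cells, marked by Slc4a1 and Alas2, had a summed share 10.01-fold below early erythroid-like cells, and 79 of 79 measured members were more than 2-fold lower and 0 higher. In this step 73.8% of all measured genes were past 2-fold lower and 5.33% higher, with a median log2 ratio of -2.45 beside -3.38 for the members. Haemoglobin genes took 58.2% of UMIs in the terminal class and 1.36% in the early class. With haemoglobin left out of the total the family shares were 6.08% and 25.8%, a difference of 4.24-fold. Rps2 again had the lowest ratio, 237.5 against 7225 CPM (log2 -4.93), and Rps27 had 289.5 against 1529 CPM (log2 -2.40). The Mg-TAGelMA library had too few terminal erythroblast-like cells for this comparison.

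Between lymphoid classes the summed share differed by less than between neutrophils and early granulocyte-like cells. T-like cells had 1.48 times the share of B-like cells in Mg and 1.401 times in Mg-TAGelMA, with 0 of 79 members past 2-fold higher in either (6.64% and 8.6% of all genes) and 0 past 2-fold lower (9.77% and 10.7%). The median member was higher by 0.54 and 0.48 on the log2 scale. B-like over B progenitor-like cells went in opposite directions in the libraries, at 0.823 in Mg and 1.15 in Mg-TAGelMA. Past 2-fold lower in B-like cells were 2 of 80 members in Mg (14.7% of all genes) and 1 of 79 in Mg-TAGelMA (10.7%), with 0 past 2-fold higher in either (12.1% and 6.62%), and Rps27l was among them in both, with log2 ratios of -2.13 and -1.37.

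Within B progenitor-like cells of the Mg library, cells were also split by proliferation genes, for cells of at least 2000 UMIs. Those with UMIs of 5 or more of 25 such genes had a family share of 23.4% (221 cells, median 17024 UMIs), and those with 1 or fewer had 14.5% (43 cells, median 3307 UMIs). The Mg-TAGelMA class held 23 cells of the first kind, at 15.3%. The same ratio was 0.970 in B-like and 0.998 in T-like cells of the Mg library, and 1.03 and 0.964 in those of the Mg-TAGelMA library. It was 1.07 and 1.12 in immature neutrophil-like and 1.05 and 1.01 in monocyte-like cells, and 1.79 in terminal erythroblast-like cells of the Mg library. Depth and proliferation cannot be told apart in this split, since deeper cells show more genes.

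Within the family, most members kept a similar share of its total from class to class. Shares are given per 10000 family UMIs, and the highest class was divided by the lowest over the 9 compared classes. Of the 77 members with at least 50 CPM in every compared class, the median fold, taking the lower of both libraries, was 1.502, and 8 members reached 2-fold. The highest class was the same in both libraries for 44 of the 77. Rps27l, Rps9, Rps27, Rps27a and Rps2 varied most.

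Rps9, on chromosome 7 at chr7:3703993-3706897 (plus strand), took the largest part of the family in neutrophils. Its share was 505.7 and 602.6 per 10000 in mature neutrophil-like cells (Mg, then Mg-TAGelMA) and 317 and 286 in immature neutrophil-like cells. Monocyte-like cells had 265 and 238, and early granulocyte-like cells had 168 and 140. The lowest class was early erythroid-like in Mg, at 159.5, and early granulocyte-like in Mg-TAGelMA, so that highest and lowest differed 3.17-fold and 4.31-fold. Rps27a, a fusion gene that encodes ubiquitin joined to a small subunit protein, showed a like order, with 331 and 424 per 10000 in mature neutrophil-like cells and 130 and 153 in B-like cells.

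Rps27 and its paralogue Rps27l (Rps27-like, known as a p53 target) followed opposite orders. Rps27 was highest in B-like cells of the Mg library, at 186 per 10000, and in mature neutrophil-like cells of the Mg-TAGelMA library, at 245, next to 235 in B-like cells. It was low in early erythroid-like cells, at 60.1 and 81.2. Rps27l was highest in early erythroid-like cells, at 30.0 and 29.1 per 10000, and low in T-like cells, at 4.48 and 5.06, and B-like cells, at 6.19 and 4.58. Of the UMIs of both genes, Rps27l took 33.3% and 26.4% in early erythroid-like cells, 20.9% and 8.83% in B progenitor-like cells, 3.23% and 1.91% in B-like cells and 2.69% and 2.53% in T-like cells. B-like and T-like cells of both libraries thus had little Rps27l beside Rps27, and early erythroid-like cells had the most of the compared classes.

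The pair can be told apart by sequence, while a retrogene of Rps27 cannot be told apart within the coding part. Rps27l and Rps27 differ at 60 of 252 coding bases (76.2% identity), and the single-exon gene Rps27rt is identical to Rps27 over all 252. The lines show the first 120 coding bases of each from the GENCODE vM21 transcripts, 5′ to 3′, and capitals mark the 28 bases of Rps27l that differ from Rps27 in this stretch.
Rps27: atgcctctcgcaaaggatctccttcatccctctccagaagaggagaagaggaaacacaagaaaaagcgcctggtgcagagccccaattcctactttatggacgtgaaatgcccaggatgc
Rps27rt: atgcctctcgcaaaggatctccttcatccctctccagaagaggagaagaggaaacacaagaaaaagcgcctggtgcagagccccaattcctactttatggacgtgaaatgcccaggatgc
Rps27l: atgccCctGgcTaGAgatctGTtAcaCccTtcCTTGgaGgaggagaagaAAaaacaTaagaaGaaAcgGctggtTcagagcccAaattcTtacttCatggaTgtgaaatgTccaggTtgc
Counts at Rps27rt, 32.1 and 39.0 CPM over all cells, are therefore uncertain. They were 1.80% and 2.37% of the UMIs of Rps27 and Rps27rt together, and were highest in T-like cells, at 80.8 and 101 CPM, where Rps27 was high as well.

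Rps2 completed the members that varied most. It took 284 and 264 per 10000 in early erythroid-like cells, and was lowest in immature neutrophil-like cells of Mg, at 85.3, and in mature neutrophil-like cells of Mg-TAGelMA, at 104.1.

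**Figure D3:**
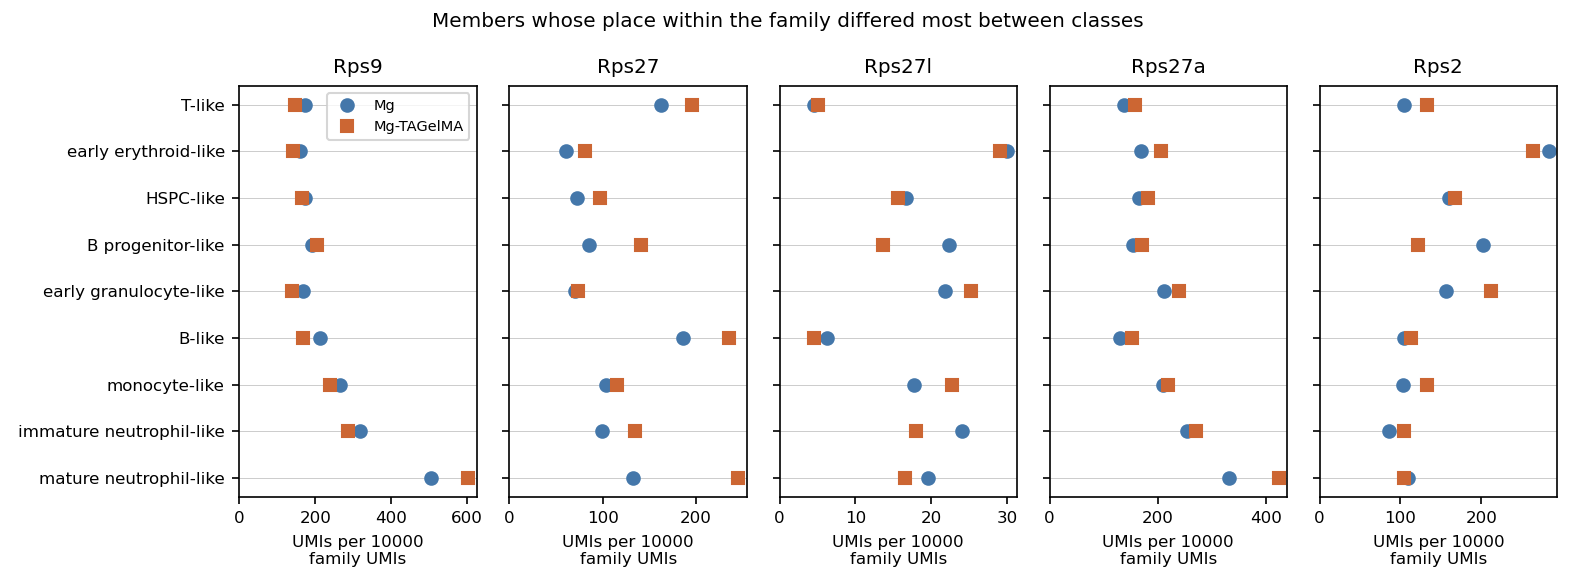
Share of the family total (x axis, UMIs per 10000 family UMIs) of Rps9, Rps27, Rps27l, Rps27a and Rps2 in the 9 compared classes (y axis), with both libraries in separate colours. Rps9 is highest in mature neutrophil-like cells, at 505.7 and 602.6, and Rps27l in early erythroid-like cells, at 30.0 and 29.1.

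The remaining paralogues fell into abundant and near-silent genes. Rpl22l1, a paralogue of Rpl22 with 68.2% coding identity, took 24.0% and 29.6% of the pair's UMIs over all cells. Its part of the pair was 24.5% in early erythroid-like cells of Mg and 34.2% in those of Mg-TAGelMA, and 25.7% and 34.2% in early granulocyte-like cells. Rpl36al, 87.7% identical to Rpl36a, took 37.6% and 46.9% of its pair. Among the compared classes its part was largest in monocyte-like cells, at 49.7% and 58.5%, and smallest in HSPC-like cells, at 28.4% and 32.5%. Rpl7l1, a paralogue of Rpl7 with 54.0% identity, was counted at 65.3 and 45.7 CPM, and Rps19bp1 at 30.0 and 21.99 CPM.

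Rpl3l, the striated muscle counterpart of Rpl3, had 83 and 298 UMIs in all. In the Mg-TAGelMA library 92 of these were in mature neutrophil-like cells, 7.38% of the UMIs of Rpl3 and Rpl3l there (95% interval 5.99 to 8.97). The Mg class had 1 UMI, 1.37% of the pair (0.0347 to 7.40), and the intervals overlap. B progenitor-like cells had 21 UMIs in Mg, 0.162% of the pair, and 20 in Mg-TAGelMA, 3.10%. Rpl39l, the testis counterpart of Rpl39, had 93 UMIs in Mg, 25 of them in immature neutrophil-like cells, and 6 in Mg-TAGelMA. The members of highest share over all cells, by contrast, included Rps12 (4103 and 2862 CPM), Rps16 (3799 and 2628), Rpl13 (3710 and 2869) and Rps24 (3535 and 3196). Of the 78 measured members, 62 exceeded 1000 CPM in both libraries.

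Between the nails, the family's share of all UMIs was lower in the Mg-TAGelMA library, with a ratio of 0.786 (95% interval 0.785 to 0.786). The median single cell gave 14.1% in Mg and 8.35% in Mg-TAGelMA. This value carries the mix of cells: mature neutrophil-like cells were 173 of 8122 in Mg and 1357 of 7226 in Mg-TAGelMA, and B-like cells were 1850 and 558. Within the 9 compared classes the median ratio was 0.954, with 6 classes below 1, 2 above and 1 whose interval included 1; the median was 1.12 over genes with little intron and 1.02 with each cell thinned to 1000 UMIs.

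The classes were not alike. B progenitor-like cells had the lowest ratio, 0.635 (0.630 to 0.640), over 395 and 53 cells. That ratio is of summed UMIs, to which deeper cells add more. For medians of single cells it was nearer to 1, at 0.783, from 16.99% in Mg and 13.3% in Mg-TAGelMA. With cells thinned to equal depth, the summed shares of this class were 18.1% in Mg and 13.99% in Mg-TAGelMA. By summed UMIs of all depths, HSPC-like cells had a ratio of 0.838, T-like cells 0.841 and B-like cells 0.887. Early erythroid-like cells had 0.954 and monocyte-like cells 0.964, and mature neutrophil-like cells had 0.985 (0.965 to 1.01), within counting error of 1. Immature neutrophil-like cells had 1.19 (1.18 to 1.19), and early granulocyte-like cells had 1.30 (1.30 to 1.31). In B progenitor-like cells 9 of the 25 proliferation genes were past 2-fold lower and 0 higher, with a median log2 ratio of -1.31. Of all measured genes there, 3.79% were past 2-fold lower and 21.1% higher. In early granulocyte-like cells the median depth differed as given above. The part of proliferation and of depth in the ratios was not tested.

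The ratios depended on which UMIs were taken as the total. Over genes with at most 8 kb of annotated intron only, the share of the family was 25.1% and 22.5% over all cells, a ratio of 0.897, and 8 of 9 classes were above 1, with a median of 1.12. B progenitor-like cells stayed below 1, at 0.894, and early granulocyte- and immature neutrophil-like cells stayed above, at 1.38 and 1.24. HSPC-, B-, T-, monocyte- and early erythroid-like cells changed side, to 1.06, 1.23, 1.09, 1.203 and 1.05, and mature neutrophil-like cells moved from within counting error of 1 to 1.12 (1.09 to 1.14). With Gm42418 and AY036118 left out of the total, the median was 0.821 instead, and mature neutrophil-like cells, where these models took 17.5% of UMIs in Mg and 0.124% in Mg-TAGelMA, had 0.813. B progenitor-like cells were below 1 under all 3 totals, and early granulocyte- and immature neutrophil-like cells were above 1 under all 3; a looser marker gate put immature neutrophil-like cells at 0.915. Whether intronic reads were counted is not given in the sources used here.

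**Figure D4:**
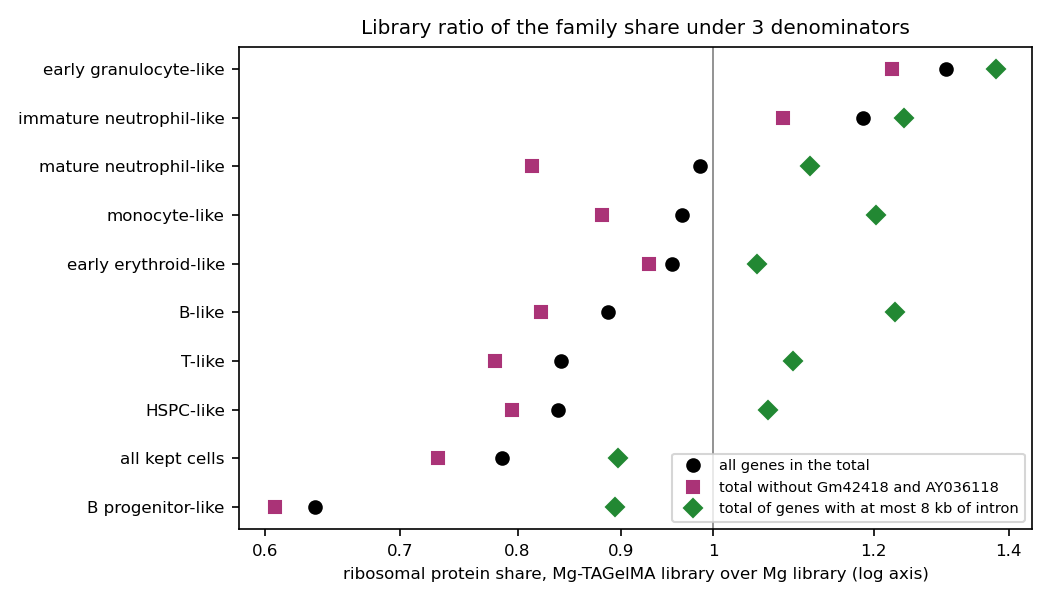
Ratio of the family's UMI share, Mg-TAGelMA over Mg (x axis, log scale), in each compared class (y axis) under 3 totals: all genes, the genes of little intron (8 kb or less), and all genes but Gm42418 and AY036118. B progenitor-like cells lie below 1 and early granulocyte- and immature neutrophil-like cells above 1 under each total.

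Member by member, 67 of the 78 measured genes were lower in Mg-TAGelMA over all cells and 11 were higher, or 59 and 19 over the total of genes with little intron and 72 and 6 with Gm42418 and AY036118 left out. The median log2 ratio was -0.35, beside -0.01 for all measured genes. Past 2-fold lower were 4 of 78 members, where 7.63% of all measured genes were, and past 2-fold higher were 0 members, where 18.8% were. The share of members past 2-fold was thus not above that of all genes.

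The 3 of these described here were all well counted. Rpl23a (uL23, at the exit of the peptide tunnel) had 1808 CPM in Mg and 741 CPM in Mg-TAGelMA, 2.44-fold lower (95% interval 2.42 to 2.47). Rpl5 (uL18, which binds 5S ribosomal RNA and, when free, MDM2) had 1739 and 742 CPM, 2.34-fold lower (2.32 to 2.37). Rpl13a (uL13) had 2545 and 1097 CPM, 2.32-fold lower (2.30 to 2.34). The counts behind these 3 genes were 99762 and 55533, 95952 and 55674, and 140399 and 82232 UMIs, so counting error was small. Rps15 (uS19), at 2131 and 1083 CPM and 1.97-fold lower, was just outside the bound.

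The members with the highest ratios encode small proteins of the large subunit. Rpl36 had 954 CPM in Mg and 1165 CPM in Mg-TAGelMA (log2 0.29), and Rpl37 had 1587 and 1849 CPM (log2 0.22). Rpl36al had 543 and 622 CPM (log2 0.20), Rpl39 had 1902 and 2110 CPM (log2 0.15), and Rpl22l1 had 395 and 433 CPM (log2 0.13). None of the 5 was past 2-fold over all cells.

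The same members stood at the ends of the list in class after class. Ranked within each compared class by their ratio, Rpl23a and Rpl5 were among the 5 lowest members in 9 of 9 classes, Rpl13a in 7 and Rps15 in 5. Rpl36 was among the 5 highest in 9 of 9, Rpl39 in 8, and Rpl37, Rpl22l1 and Rps27 in 5 each. Relative to the median member of each class, Rpl23a lay between -1.25 and -0.96 on the log2 scale in every one of these classes and Rpl36 between 0.58 and 0.94. In all, 20 members lay below and 19 above the median member in every compared class. All classes of a library were counted together with the same software, so the classes are not independent repeats of these ratios.

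**Figure D5:**
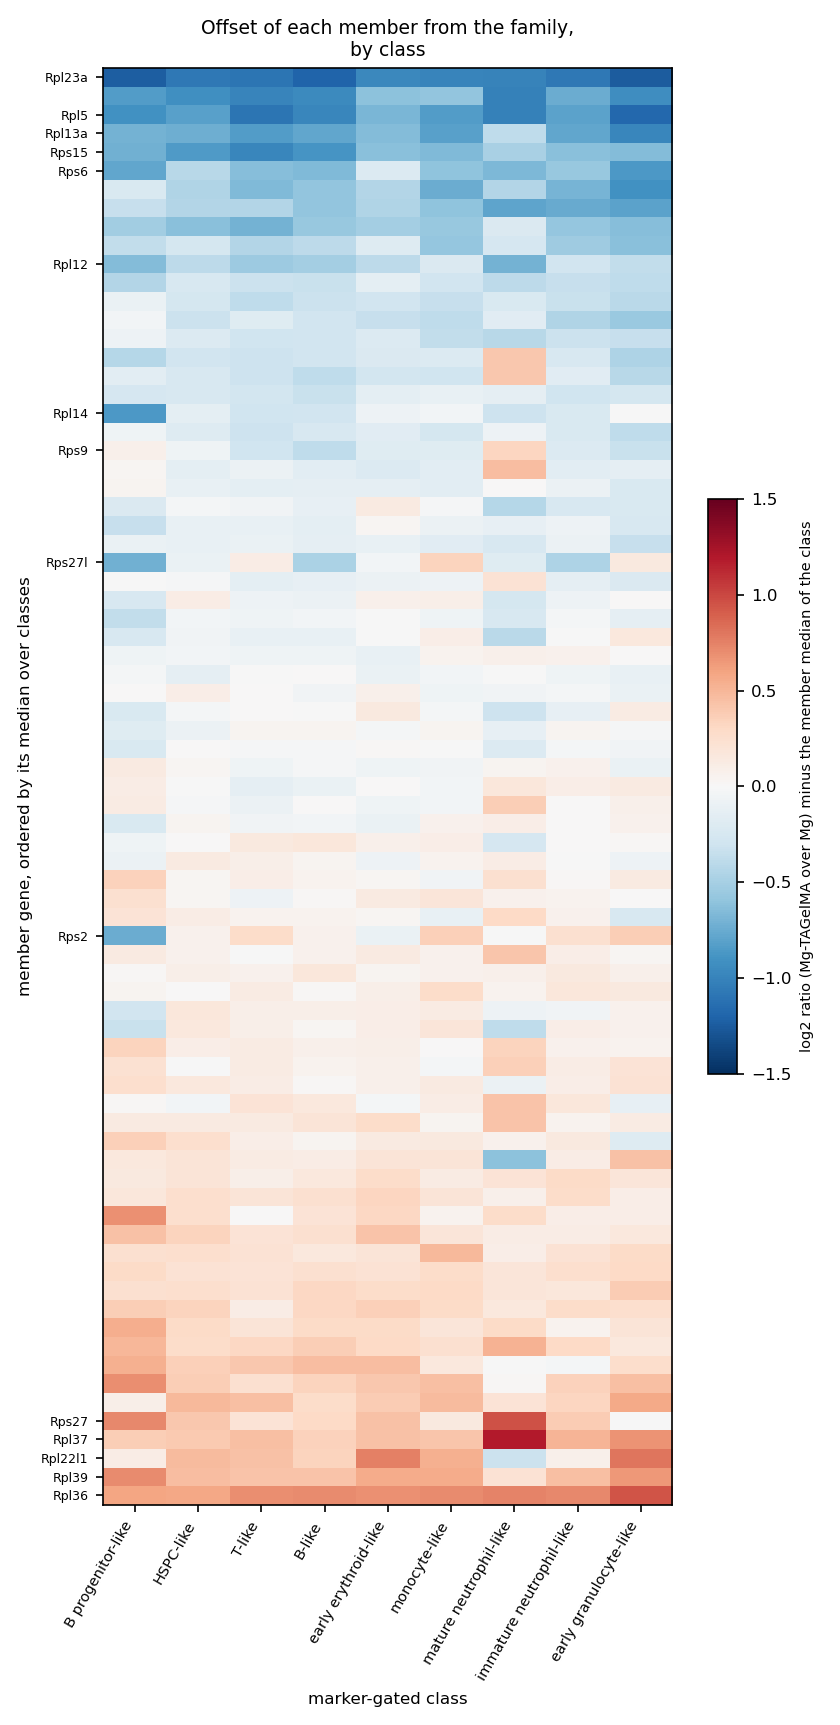
Heat map of the log2 ratio, Mg-TAGelMA over Mg, of 77 members (rows) in 9 compared classes (columns), minus the median member of the class; blue is lower and red higher than the median member, and a selection of rows is labelled. Rpl23a and Rpl5 form blue rows and Rpl36 a red row in every column.

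Counted class by class, members past 2-fold were few outside B progenitor-like cells. In B progenitor-like cells 10 of 80 were lower (3.79% of all measured genes), among them Rpl23a, Rpl5, Rpl14, Rps6, Rps2, Rps27l, Rps15, Rpl13a and Rpl12. Rpl23a was 2428 and 658 CPM there (3.69-fold), Rps2 was 4529 and 1725 CPM (2.63-fold), and Rps27l was 501 and 194 CPM (2.58-fold). HSPC-like cells had 3 of 78 lower (1.18%), Rpl23a and Rps15 among them. B-like cells had 3 of 79 (3.68%), with Rpl23a and Rpl5 among them, and T-like cells had 4 of 78 (1.77%), with Rpl5, Rpl23a and Rps15 among them.

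Early granulocyte-like cells were the compared class with members past 2-fold higher, 4 of 79 (5.76% of all measured genes), and had 0 past 2-fold lower (2.4%). Rpl36 was 905 CPM in Mg and 2380 CPM in Mg-TAGelMA (2.63-fold), and Rpl22l1 was 462 and 1099 CPM (2.38-fold). Rpl37 and Rpl39 were 2.18-fold and 2.15-fold higher. No member was past 2-fold in either direction in immature neutrophil-like cells (2.66% of all measured genes lower and 9.88% higher), mature neutrophil-like cells (7.35% and 9.55%), monocyte-like cells (1.54% and 14.7%) or early erythroid-like cells (0.691% and 12.8%).

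The promoters of a few of these members are shown because they differ in the motifs described next. Each line gives 60 bases before and 20 after the annotated start in the GRCm38.p6 build, from RefSeq, on the strand of the gene; capitals mark CTTTCC or CCGGAAG read on either strand. Rps9 is at chr7:3703981-3704060 (plus), Rps27 at chr3:90213629-90213708 (minus), Rps27l at chr9:66946026-66946105 (plus), Rpl5 at chr5:107900468-107900547 (plus) and Rpl13a at chr7:45128726-45128805 (minus).
Rps9: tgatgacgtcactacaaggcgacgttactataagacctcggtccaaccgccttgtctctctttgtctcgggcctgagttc
Rps27: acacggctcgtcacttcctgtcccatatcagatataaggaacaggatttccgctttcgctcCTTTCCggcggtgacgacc
Rps27l: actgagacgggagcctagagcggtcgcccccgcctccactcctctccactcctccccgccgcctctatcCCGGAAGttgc
Rpl5: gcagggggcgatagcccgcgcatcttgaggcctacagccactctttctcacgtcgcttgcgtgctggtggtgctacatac
Rpl13a: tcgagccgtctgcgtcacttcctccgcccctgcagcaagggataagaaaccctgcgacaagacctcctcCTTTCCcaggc
Rps27 and Rpl13a hold the pyrimidine run CTTTCC at the start, Rps27l holds CCGGAAG, the core of an ETS factor site, and Rps9 and Rpl5 hold neither in these 80 bases.

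RefSeq promoter windows, of 250 bases before and 50 after the start, were found for 64 of the 83 members, 76 windows in all, and were set beside all 32851 windows of the same length. CTTTCC on the strand of the gene in the last 80 bases was in 28.9% of members' windows and 3.73% of all windows. On either strand of the whole window CTTTCC was in 51.3% and 26.6%, CCGGAAG in 34.2% and 8.86%, AAGATGGC, a YY1 core, in 10.53% and 2.75%, and TATAAA in 7.89% and 13.6%. On the strand of the gene in the last 80 bases, TATAAA was in 5.26% of members' windows and 2.32% of all windows, the opposite order. The motifs were searched singly and may overlap. A match describes the letters of the window only.

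The genes share a compact structure that the naming rule did not use. All 83 were protein-coding in the GENCODE vM21 annotation, with a median of 1.17 kb of intron beside 13.4 kb for all listed protein-coding genes, and 80 had at most 8 kb. They lay on 19 chromosomes, with 13 on chromosome 7 and 4 on the X. Small nucleolar RNAs, which guide the modification of ribosomal RNA, lay within 29 members (34.9%), against 1.16% of all listed protein-coding genes. Of the 4 members past 2-fold lower, Rpl13a held 4, and Rpl23a and Rpl5 held 3 each. Over all cells the 29 hosts had a median log2 ratio of -0.41 and the other 49 measured members -0.29. Named pseudogenes in the annotation numbered 290 and belonged to 58 members, and how reads that match both were counted is not given in the sources used here.

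The ratio between the libraries differed with coding length. The 26 measured members with coding sequences of 138 to 405 bases had a median log2 ratio of -0.10, the next 26 (405 to 576 bases) -0.46, and the longest 26 (582 to 1257 bases) -0.39. Across members, Spearman's rho between coding length and ratio was between -0.53 and -0.29 in the 9 compared classes and all cells, and between -0.17 and -0.01 for intron length. These values share the libraries and are a description of 78 genes, which are not replicates.

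Ribosomal proteins outside the naming rule behaved unevenly between the libraries. Of the 6 measured, 0 were past 2-fold in either direction over all cells, with a median log2 ratio of -0.48. Rplp1, an acidic stalk protein, had 4252 and 2370 CPM, and Rack1, a scaffold on the small subunit, had 1762 and 977 CPM. Rplp0, the stalk base, had 2466 and 2214 CPM, and Fau, a fusion that yields a small subunit protein, had 3196 and 3566 CPM.

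Among the wider translation genes, the 15 factors whose messenger RNAs carry a pyrimidine start had 1 past 2-fold lower and 0 higher, with a median log2 ratio of -0.46. It was Eef1g, a subunit of elongation factor 1, at 530 and 229 CPM. Of 19 measured ribosome biogenesis genes out of 44 listed, 4 were lower and 0 higher, with a median of -0.74: Ubtf (136 and 54.1 CPM), a factor of ribosomal RNA transcription, Gnl3 (89.1 and 34.99 CPM), Nop56 (98.9 and 44.3 CPM), a core protein of small nucleolar particles, and Ncl, which encodes nucleolin. Of 6 measured regulators out of 15, 1 was higher and 0 lower, with a median of 0.13. It was Rptor, which encodes the mTOR partner Raptor, at 25.2 and 58.2 CPM, and its gene has 283 kb of intron. The 25 proliferation genes had 19 lower and 0 higher, with a median of -1.13. Of the 20 Diamond-Blackfan anaemia genes, all of them members, 2 were past 2-fold lower, Rpl5 among them, with a median of -0.36. Against the backgrounds given above, 7.63% lower and 18.8% higher, the proliferation list and the biogenesis list were lower more often than all genes, and no test of this was run.

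In early granulocyte-like cells the same lists lay on the other side. The median member had a log2 ratio of 0.45, factors with pyrimidine starts 0.24 and biogenesis genes 0.29, beside 0.09 for all measured genes and -0.63 for proliferation genes. In B progenitor-like cells the median factor was at -0.74 and the median biogenesis gene at -1.24, beside 0.19 for all measured genes. Past 2-fold lower were 4 of 15 factors and 7 of 24 biogenesis genes, where 3.79% of all measured genes were.

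Across classes, the genes outside the family that followed its summed level most closely were Eef1a1 (Pearson's r 0.99), Eef1b2 (0.98), Rplp2 (0.98), Rack1 (0.98) and Eef2 (0.97). The correlations were taken over 18 points of log2 CPM, 9 classes in both libraries, among 690 genes; the points share libraries, depth and total. Several other housekeeping families had a different order of classes. T-like over early erythroid-like cells gave 1.07 and 0.943 for the ribosomal protein family, but 0.446 and 0.454 for 83 nuclear respiratory chain genes, 0.507 and 0.541 for 50 proteasome genes, and 0.388 and 0.397 for 78 mitochondrial ribosomal protein genes. It was 0.431 and 0.443 for ribosome biogenesis genes. Nearer to the family were translation factors with pyrimidine starts, at 1.13 and 0.901, and the 6 ribosomal proteins outside the naming rule, at 1.05 and 0.941. Early granulocyte- over mature neutrophil-like cells gave 5.94 and 7.85 for the ribosomal protein family and 3.70 and 3.79 for the respiratory chain. The same ratio was 3.22 and 3.72 for proteasome genes and 3.92 and 3.98 for mitochondrial ribosomal protein genes. It was 4.17 and 7.65 for ribosome biogenesis genes, and 3.998 and 5.14 for translation factors with pyrimidine starts. Mature neutrophil-like cells had the lowest share of each of these families among the compared classes in both libraries. With 1 library per group, these differences between families were not tested.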

How the data were processed

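The authors deposited UMI counts per gene and cell barcode for 2 libraries, made with Cell Ranger 5.0.0 (Mg) and 7.0.1 (Mg-TAGelMA), per the file headers; STAR and the mm10 build are named in the submitters' processing notes. The annotation release and the counting of intronic reads are not given in the sources used here. The deposited matrices held 9466 and 7591 barcodes of at least 500 UMIs. Barcodes with under 200 genes (189 and 22) or over 15% mitochondrial UMIs (1091 and 62) were left out, as were doublets called by Scrublet in scanpy 1.11.5 (197, or 2.37%, and 297, or 3.95%).

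A cell joined a class where at least 2 of its 6 markers had a UMI, the log of the summed marker share, divided by its 99.9th percentile over all kept cells, reached 0.4, and the next class reached at most 0.75 of that. Counts were summed per library and class. Ratios are Mg-TAGelMA over Mg, or between classes of 1 library, with exact conditional binomial 95% intervals (scipy 1.17.1); no test and no p-value was computed. A gene with 0 counts on one side was set to 3 counts there, which enters list medians only. The calls were tested on simulated counts. Gene structure came from GENCODE vM21, in which 99.8% of listed genes were found by identifier.

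The members named were those of highest and lowest share and ratio, those that varied most between classes, paralogues and members past 2-fold in a class; of other lists, those of largest ratio. Examples named to show a stage or a class, such as Rps27 along the granulocyte series, came from these. The members, markers and gene lists were chosen with earlier results of these data known. Alternatives covered cell filters, gates, totals, scaling (edgeR 4.0.16 and DESeq2 1.42.0 factors only), depth, the CPM minimum and membership. Values of some genes that the rule would name are not reported here.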

Additional observations from a re-analysis of the deposited data

How the results depend on the processing

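With 1 library per group, leaving out a library was not possible. No paired analysis was possible because each group has 1 library. The ratio over all cells, 0.786, stayed below 1 under every alternative run: 0.795 with no cell filter, 0.777 with at least 500 genes per cell, 0.781 with doublet calls kept, 0.731 without Gm42418 and AY036118, 0.759 without haemoglobin genes, 0.777 without mitochondrial genes, 0.897 over genes of at most 8 kb intron, 0.594 for medians of single cells, 0.748 with cells thinned to 1000 UMIs (604 and 177 shallower cells left out), 0.784 without paralogues, 0.783 with the 6 ribosomal proteins of other names, and 0.757 with at least 5000 UMIs per cell, an alternative chosen after seeing the data. The median ratio of the compared classes, 0.954, passed 1 over genes of at most 8 kb intron (1.12) and after thinning (1.02); it was 0.969 with no cell filter, 0.981 and 0.895 with the stricter and the looser gate, 0.821 without Gm42418 and AY036118, 0.945 for medians of single cells, 0.949 with the 6 other ribosomal proteins and 0.881 at 5000 UMIs. Single classes changed side as follows: HSPC-like 1.06, B-like 1.23, T-like 1.09, monocyte-like 1.203 and early erythroid-like 1.05 over genes of at most 8 kb intron, where the log2 ratio of Rps27 was 0.0542; mature neutrophil-like cells, at 0.985 and within counting error of 1, were at 1.12 there; monocyte-like 1.04 and early erythroid-like 1.04 after thinning; and immature neutrophil-like 0.915 with the looser gate. The causes were not tested. The fold between the highest and lowest class in Mg, 8.60, became 8.95 at 500 genes, 7.45 with the looser gate, 7.66 without Gm42418 and AY036118, 8.85 without mitochondrial genes, 8.06 over genes of at most 8 kb intron and, for T-like over immature neutrophil-like cells, 5.66 at 5000 UMIs. In Mg-TAGelMA, 7.85 became 7.28 with no cell filter or with doublets kept, 7.47 with the looser gate, 8.06 without mitochondrial genes, 7.90 over genes of at most 8 kb intron, 8.15 for medians of single cells, 8.29 after thinning, 7.81 without paralogues, 7.38 with the 6 other ribosomal proteins and, for early erythroid-like over immature neutrophil-like cells, 3.98 at 5000 UMIs. The highest class of Mg-TAGelMA was T-like over genes of little intron. It was early erythroid-like without haemoglobin genes, after thinning and with the 6 other proteins. With the stricter gate it was early erythroid-like too, but the early granulocyte-like class was not compared there, with too few cells in Mg. Values at 5000 UMIs are for other pairs of classes, since too few mature neutrophil-like and early granulocyte-like cells of Mg were left. Members past 2-fold lower, 4, numbered 3 to 5 under the other totals, filters and scalings; Rps15 joined where there were 5, except without the CPM minimum, where Rpl39l joined, and Rpl23a, Rpl5 and Rpl13a were past it where there were 3. With a bound of 1.5-fold they numbered 13. The share of all measured genes past that bound is not given here, so this count cannot be read against it. Without the CPM minimum 1 member, Rpl3l, was past 2-fold higher. Depth limits mainly the mature neutrophil-like and early granulocyte-like classes of Mg, with medians of 1404 and 2453.5 UMIs. Cell number limits the B progenitor-like class of Mg-TAGelMA, with 53 cells of a median 8898 UMIs.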
